A study of Sus scrofa with 8 samples.

Results

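The genes described here encode glucose and lactate transporters, the enzymes of glycolysis, and the enzymes that build and break down glycogen in pig left ventricle. The members are a named list of 39 genes, matched by symbol to the deposited table. Rows were found for 36 of them, and 35 passed a filter of at least 10 normalized counts in at least 4 of the 8 libraries, as did 11660 of the 14718 genes in the table. SLC2A3, SLC16A1 and PGM1 were not analysed here. PFKFB1, a bifunctional enzyme gene best known from liver, had at most 2.65 normalized counts in any library and was not tested.

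RNA of left ventricular tissue was sequenced from 4 gene-edited (mutant) pigs and 4 wild-type (WT) pigs, 1 library per pig, in a study that models long QT syndrome, a disorder of ventricular repolarization. Of the mutant pigs, replicates 1 to 3 are labelled as carrying a KCNH2 mutation, and replicate 4 is labelled with KCNH3, whereas the series design names KCNH2 alone. The labels state neither the edited allele, its zygosity nor any treatment, and give no age or sex. Where nothing says that libraries of a group differ in more than the animal, p-values measure only the spread between these samples.

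Glucose enters the cardiac myocyte through GLUT1 and the insulin-responsive GLUT4, is trapped by hexokinase, and is either oxidized by way of glycolysis and pyruvate or stored as glycogen. Phosphofructokinase is the committed step of glycolysis, and its activator fructose 2,6-bisphosphate is made and removed by the PFKFB enzymes. Glycogen grows on the primer glycogenin through glycogen synthase and the branching enzyme, and phosphorylase releases its glucose units when phosphorylase kinase switches it on. The adult ventricle takes most of its fuel from fatty acids and draws more on glucose and glycogen under load, at low oxygen and before birth.

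Libraries held 15.9 to 22.4 M reads in mutant pigs and 16.8 to 21.6 M reads in WT pigs (M is the SI prefix mega). Mitochondrially encoded genes took 15.9% to 27.5% of the reads in mutant libraries, against 31.7% to 87.9% in WT libraries, without overlap. WT replicates 3 and 4 had the highest shares, 87.9% and 65.2%, which left 2.53 M and 7.53 M reads for nuclear genes, against 12.7 to 16.2 M in mutant libraries. In WT replicate 3 a single read was worth 4.84 normalized counts, so its low values are coarse. KCNH2, the edited gene, had 798, 1762, 1751 and 1839 normalized counts in mutant replicates 1 to 4, against 989, 559, 1909 and 148 in WT replicates 1 to 4; these gene-level values do not show an edit. Mutant replicates 3 and 4 were the closest pair of libraries, but with a chi-square of 12.1 per gene they were further apart than counting noise allows, and both were kept.

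The glycogen genes were, in the main, higher in mutant ventricles, while the glycolytic enzymes were divided. Of 11 measured glycogen genes 10 had a positive log2 difference (mutant minus WT) and 1 a negative one, with a median of 0.64, and in every alternative run at least 8 of the 11 were positive. The median was 0.39 without mutant replicate 1 and 0.24 without that library and WT replicates 3 and 4. Of 21 measured glycolytic genes 10 were positive and 11 negative, with a median of -0.04. That split depends on scaling and libraries, with 13 positive and 8 negative after quantile normalization, 7 and 14 in edgeR, and 3 and 18 without WT replicates 3 and 4. Of 3 measured transporter genes 1 was positive and 2 were negative, but all 3 were positive without WT replicate 1 and again without mutant replicate 1. Over all 35 members the median was 0.24, beside 0.12 over all tested genes, and 21 members (60.0%) were positive, beside 56.9% of all tested genes. Without WT replicates 3 and 4 the median of the members was -0.15, so its sign depends on keeping those libraries. The median over all tested genes is not set beside it for that run. In DESeq2 and in edgeR with all libraries, 18 members were positive and 17 negative.

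No member passed limma after Benjamini-Hochberg adjustment over all genes (percent called among all genes: 0), and none passed edgeR (also 0). In edgeR 7 members had an unadjusted p under 0.05, beside 14.7% of all tested genes. At an unadjusted limma p under 0.05 stood 7 members, 5 higher (PFKM, PFKFB2, GYS1, GBE1 and PYGM) and 2 lower (HK2 and PGM2) in mutant libraries. That is 20.0% of the members, beside 13.9% of all tested genes (7.06% higher and 6.8% lower). The groups did not overlap for 5 members, with mutant libraries on top for 4 and WT libraries on top for 1. That is 14.3% of the members, beside 11.4% of all tested genes (6.17% higher and 5.22% lower in mutant). The authors' deposited table calls 2 members at an adjusted p under 0.05, GBE1 higher and PGM2 lower, which is 5.71% of the members beside 4.54% of the genes with an adjusted p there (1.32% higher and 3.23% lower). DESeq2 on the recovered reads called the same 2 members, beside 4.56% of genes (1.32% higher and 3.24% lower). Every one of these shares is within a few genes of the background. The bulk libraries cannot tell fewer cells of a type from less RNA per cell.

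**Figure D1:**
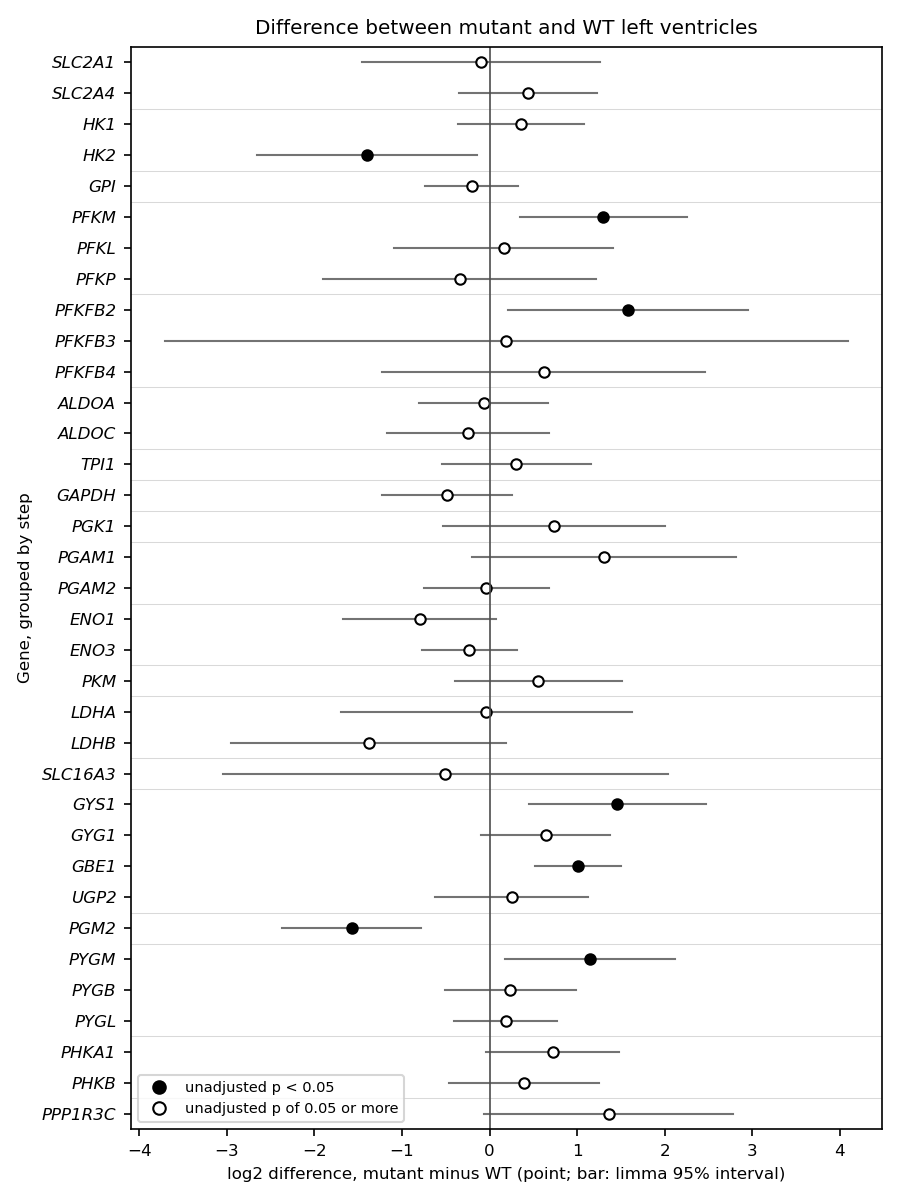
The horizontal axis is the log2 difference in normalized counts (mutant minus WT, 4 libraries each), with 1 row per measured gene grouped by step; points are limma estimates, bars are 95% intervals and filled points have an unadjusted p under 0.05. Filled points lie to the right for PFKM, PFKFB2, GYS1, GBE1 and PYGM and to the left for HK2 and PGM2, and the widest interval, -3.70 to 4.09, belongs to PFKFB3.

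Glucose transporter genes showed no separation of the groups. SLC2A4, which encodes GLUT4, had 2915, 1955, 1627 and 1520.3 normalized counts in mutant replicates 1 to 4, against 878, 1545, 1226 and 2494 in WT replicates 1 to 4. The log2 difference was 0.44 ± 0.35 (SE; limma adjusted p = 0.560), with 0.71 without WT replicate 4 and 0.21 without WT replicate 1. The ranges overlapped, with the lowest value in WT replicate 1 and the highest in mutant replicate 1. SLC2A1, which encodes the basal transporter GLUT1, ran the other way within both groups: it was lowest in mutant replicate 1 at 246 and highest in WT replicate 1 at 1631, with a log2 difference of -0.09 (95% interval -1.45 to 1.26).

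The hexokinase genes parted from each other. HK2, the insulin-regulated muscle hexokinase, had 42.8, 172, 226 and 232 normalized counts in mutant libraries, against 429, 618, 339 and 215 in WT libraries. The means were 168 ± 87.8 in mutant and 400.1 ± 169.5 in WT libraries (SD, n = 4 each), a log2 difference of -1.40 ± 0.56 (SE; limma adjusted p = 0.320). WT replicate 4 lay among the mutant values, and mutant replicate 1 lay far below the rest; without mutant replicate 1 the difference was -0.84. WT replicate 2, the highest for HK2, also had the highest summed level of the neutrophil markers, 2198 normalized counts against 14.1 to 319 in mutant and 63.1 to 150.2 in the other WT libraries, and without it the difference was -1.16. The part of neutrophils in this difference was not tested. HK1, the constitutive hexokinase, had 5419, 5587, 6049.7 and 5074 normalized counts in mutant libraries, against 7067, 4963, 4006 and 2441 in WT libraries. HK1 differed by 0.36 ± 0.32 on the log2 scale (SE; limma adjusted p = 0.606), and the narrow mutant range lay inside the wide WT range. Leaving out WT replicate 1 gave 0.60 for HK1, and leaving out WT replicate 4 gave 0.087. The next enzyme, glucose-6-phosphate isomerase (GPI), had 5764, 5517, 5114 and 4969 normalized counts in mutant libraries, against 7370.3, 4794, 7247 and 5581 in WT libraries (log2 difference -0.21 ± 0.24, SE).

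Of the phosphofructokinase genes, only PFKM had groups that did not overlap. PFKM, the muscle subunit, had 20922, 9440.1, 10519 and 10432 normalized counts in mutant libraries, against 6522, 7111, 5823 and 2204 in WT libraries. Every mutant library was above every WT library. The means were 12828 ± 5418 in mutant and 5415 ± 2204 in WT libraries (SD, n = 4 each), a ratio of 2.37 and a log2 difference of 1.30 ± 0.43 (SE; limma adjusted p = 0.267, all 4 mutant libraries higher). With WT replicates 3 and 4 left out it was 0.83, and without mutant replicate 1 it was 1.03. The lowest PFKM difference over 21 alternative runs was 0.57. For PFKM a log2 fold change of 1.24 with an adjusted p of 0.0726 stands in the authors' deposited table. The groups overlapped for the liver subunit gene PFKL and the platelet subunit gene PFKP. Their log2 differences were 0.16 (95% interval -1.09 to 1.41, with -0.10 in DESeq2) and -0.34 (95% interval -1.90 to 1.22). The interval of PFKL includes the PFKM estimate of 1.30, so these values do not set the 2 genes apart. PFKP dropped to 158 normalized counts in mutant replicate 1, where PFKM was highest.

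Among the bifunctional enzymes that set fructose 2,6-bisphosphate, PFKFB2 is the cardiac form. It had 419, 369, 364 and 454 normalized counts in mutant libraries, against 350.4, 287, 53.3 and 58.2 in WT libraries. The groups did not overlap, but the gap between mutant replicate 3 and WT replicate 1 was small. The log2 difference of 1.58 ± 0.61 (SE; limma adjusted p = 0.312) came largely from WT replicates 3 and 4, and without both it was 0.33. PFKFB3, the inducible form with high kinase activity, had 65.4, 83.5, 123 and 137 normalized counts in mutant libraries, against 328, 529, 0 and 322 in WT libraries. The zero in WT replicate 3 allows up to 3 reads, or 14.5 normalized counts, at its depth. The other WT libraries were all above the mutant libraries. The limma estimate with all libraries was 0.19 ± 1.74 (SE), whereas DESeq2 on the recovered reads gave -1.53 (adjusted p = 0.339). WT replicate 3 decides this gene: without it limma gave -1.95 ± 0.34 (SE; adjusted p = 0.154), and DESeq2 gave -1.94 and called PFKFB3 lower (adjusted p = 0.000166). PFKFB4 was likewise low in WT replicate 3, at 9.69 normalized counts, and otherwise lay between 89.2 and 148 in mutant and 94.6 and 217 in WT libraries.

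**Figure D2:**
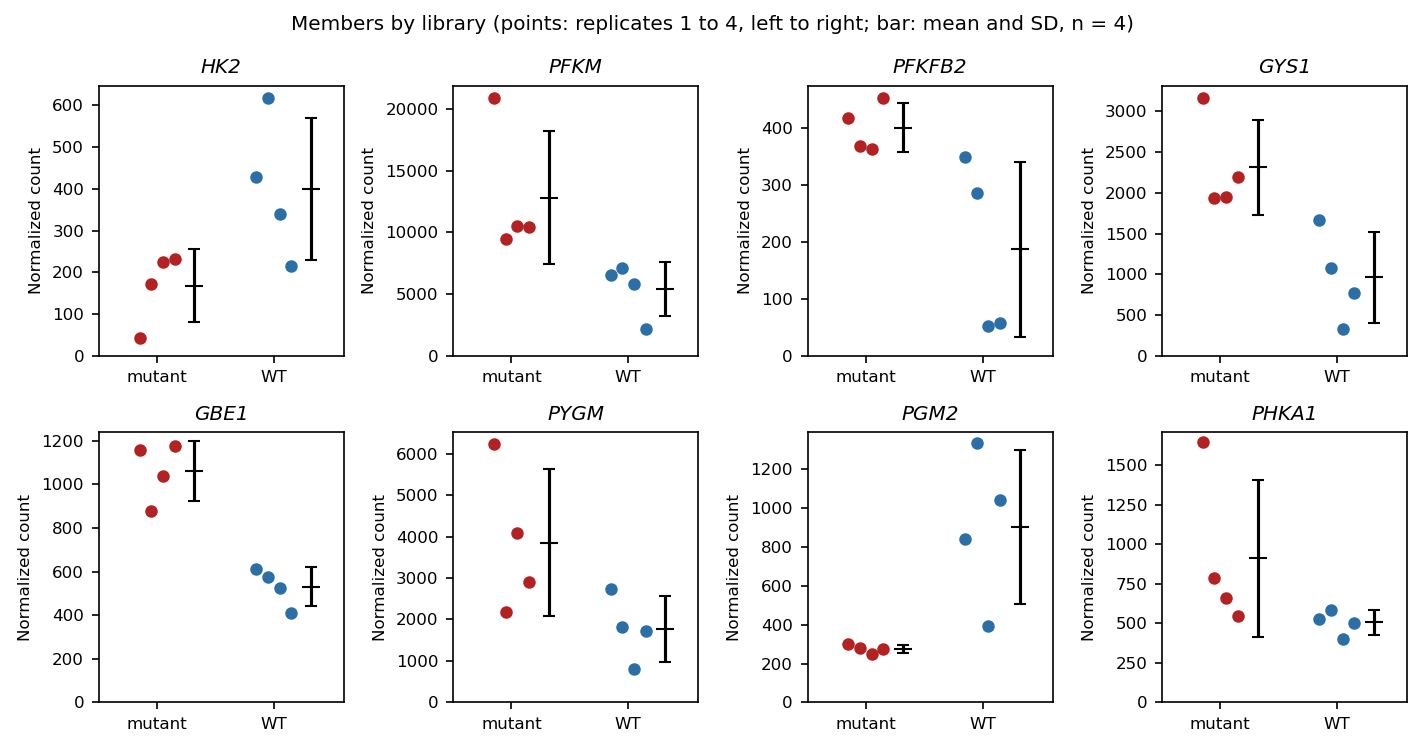
Each panel plots the normalized count of 1 gene (axis from 0), with mutant libraries left and WT libraries right, points in the order of replicates 1 to 4 and bars showing mean and SD (n = 4). The groups do not overlap for PFKM, PFKFB2, GYS1, GBE1 and PGM2. Mutant replicate 1 is the highest mutant library for PFKM, GYS1, PYGM, PHKA1 and, by a small margin, PGM2, and the lowest for HK2.

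The lower glycolytic enzymes mostly overlapped between the groups. ALDOA, the muscle aldolase, had 40277, 35749.8, 35706 and 34092 normalized counts in mutant libraries, against 57718, 36284, 43775 and 22984 in WT libraries, a log2 difference of -0.07 (95% interval -0.80 to 0.67). ALDOC, the aldolase best known from brain, had 158 to 395 in mutant and 140.5 to 444 in WT libraries. Triosephosphate isomerase (TPI1) had 6821, 9756, 11021 and 10612 in mutant libraries, against 15206, 6352, 7659 and 4491 in WT libraries. Its log2 difference of 0.31 ± 0.38 (SE) became 0.64 when WT replicate 1 was left out and 0.055 when WT replicate 4 was. The glyceraldehyde-3-phosphate dehydrogenase gene GAPDH had 125157, 111103, 86855 and 76535 normalized counts in mutant libraries, against 138169, 129009, 180202 and 110437 in WT libraries. GAPDH differed by -0.49 ± 0.33 on the log2 scale (SE; limma adjusted p = 0.509), but by 0.45 after quantile normalization, so its direction depends on the scaling. GAPDH alone made up 31.2% to 41.4% of the reads of all measured members in mutant libraries and 37.6% to 54.7% in WT libraries.

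WT libraries were spread over a wide range for the enzymes that follow. Phosphoglycerate kinase (PGK1) had 4453, 5191, 6179.9 and 6255 normalized counts in mutant libraries, against 10012, 3991, 2679 and 1083 in WT libraries. Its log2 difference was 0.74 ± 0.57 (SE; limma adjusted p = 0.550), with 1.27 when WT replicate 1 was left out, 0.20 when WT replicate 4 was, and -0.21 when both WT replicates 3 and 4 were. PGAM1, the non-muscle phosphoglycerate mutase, had 268 normalized counts in WT replicate 4, against 1905 to 4403 in mutant and 1799 to 2877 in the other WT libraries. The log2 difference of PGAM1 was 1.31 (95% interval -0.20 to 2.81). PGAM2, the muscle mutase, had 2456, 4650.2, 5030.1 and 4354 in mutant libraries, against 4744, 4087, 5358 and 2668 in WT libraries, a log2 difference of -0.04 (95% interval -0.75 to 0.68). The muscle enolase gene ENO3 had 21021, 19299, 18551 and 16175 in mutant libraries, against 20381, 26464, 21626 and 19716 in WT libraries. Its log2 difference of -0.23 ± 0.24 (SE) was among the most precisely measured, and 3 of 4 mutant values lay below all WT values. The ubiquitous enolase ENO1 averaged 3026 ± 969 in mutant and 5366 ± 2333 in WT libraries (SD, n = 4 each; log2 difference -0.80 ± 0.39, SE; limma adjusted p = 0.392).

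The values of pyruvate kinase and the lactate genes overlapped between the groups. PKM, which encodes the muscle pyruvate kinases, had 14416, 20158, 21524 and 23319.7 normalized counts in mutant libraries, against 28423, 16112, 9578 and 7123 in WT libraries (log2 difference 0.56 ± 0.43, SE). Leaving out WT replicate 1 gave 0.92 for PKM, leaving out WT replicate 4 gave 0.26, and leaving out both WT replicates 3 and 4 gave -0.13. LDHA, the lactate dehydrogenase subunit of glycolytic muscle, had 1054, 2842, 3228 and 3845 in mutant libraries, against 12031, 2464, 1584 and 882 in WT libraries. SLC16A3, which encodes the lactate exporter MCT4, had 47.6, 521, 769 and 620.4 in mutant libraries, against 3203, 595, 266 and 95.8 in WT libraries. WT replicate 1 stood far above every other library for both genes, and the log2 differences of -0.04 (95% interval -1.70 to 1.62) and -0.51 (95% interval -3.05 to 2.03) became 0.71 and 0.41 without it. Without mutant replicate 1 they were 0.37 for LDHA and 0.42 for SLC16A3, so neither direction holds. LDHB, the heart-type subunit, had 187, 2441, 1061 and 1827 in mutant libraries, against 2882, 3667, 1948 and 1988 in WT libraries. Its log2 difference was -1.38 ± 0.70 (SE; limma adjusted p = 0.404), with 3 of 4 mutant libraries below all WT libraries; without mutant replicate 1 it was -0.59.

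Among the genes of glycogen synthesis GBE1 and GYS1 did not overlap between the groups, while GYG1 and UGP2 did. GBE1, the branching enzyme, had 1156, 878, 1038 and 1175 normalized counts in mutant libraries, against 613, 577, 523 and 409 in WT libraries. All mutant libraries lay above all WT libraries, with a clear gap and a small spread in both groups. The means were 1062 ± 137 in mutant and 531 ± 89.3 in WT libraries (SD, n = 4 each), a ratio of 2.0 and a log2 difference of 1.01 ± 0.22 (SE; limma adjusted p = 0.193). In the authors' deposited table GBE1 is called higher, with a log2 fold change of 1.00 and an adjusted p of 0.00268. In DESeq2 on the recovered reads, leaving out mutant replicate 4 took its adjusted p to 0.0838, with a difference of 0.95, and it stayed below 0.05 without any other single library. In limma the difference was 0.83 without WT replicates 3 and 4.

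GYS1, the muscle glycogen synthase, had 3169, 1935, 1952 and 2194 normalized counts in mutant libraries, against 1666, 1082, 329 and 772 in WT libraries. The groups did not overlap, and WT replicate 3, the shallowest library for nuclear genes, was lowest. The log2 difference was 1.46 ± 0.45 (SE; limma adjusted p = 0.250), and 0.75 without WT replicates 3 and 4. For GYS1 the log2 fold change in the authors' deposited table is 1.26, with an adjusted p of 0.0918. Without WT replicate 1, DESeq2 on the recovered reads called GYS1 higher, together with PYGM and PPP1R3C. That was the DESeq2 run with the most genes called. With all libraries, or without any other single library, DESeq2 called none of these genes. GYG1, which encodes the primer protein glycogenin, had 4208, 2557, 2804 and 2580.3 in mutant libraries, against 3067, 1669, 2224 and 1154 in WT libraries (log2 difference 0.64 ± 0.33, SE; limma adjusted p = 0.410; 0.40 without WT replicate 4). UGP2, which makes UDP-glucose, had 791 to 1908 in mutant and 514 to 1444 in WT libraries and a log2 difference of 0.25 (95% interval -0.62 to 1.12).

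PGM2 was the only measured glycogen member that went the other way. Its product is a phosphoglucomutase that in human cells acts mainly on phosphopentoses. It had 299, 279, 250.3 and 275 normalized counts in mutant libraries, against 838, 1335, 392 and 1041 in WT libraries. The mutant values were nearly uniform, and the lowest WT value, in replicate 3, still lay above them. The means were 276 ± 19.9 in mutant and 902 ± 396 in WT libraries (SD, n = 4 each), a log2 difference of -1.58 ± 0.35 (SE; limma adjusted p = 0.193). PGM2 is called lower in the authors' deposited table, with a log2 fold change of -1.72 and an adjusted p of 0.000878. In DESeq2 it was called without each library in turn, with differences of -1.96 to -1.46. The markers of erythroid cells, which carry this enzyme in humans, had summed levels of 2511 to 2979 in mutant libraries. In WT replicates 1 to 4 the sums were 17595, 31450.2, 29043 and 49.7. SLC4A1 and HBM were at 0 in WT replicate 4. The part of erythroid cells in the PGM2 difference was not tested.

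The measured members of glycogen breakdown and its control all had positive limma log2 differences with all libraries in, and their groups overlapped. PYGM, the muscle phosphorylase, had 6237, 2172, 4088 and 2912 normalized counts in mutant libraries, against 2727, 1816, 795 and 1722 in WT libraries. Only mutant replicate 2 lay below a WT library, WT replicate 1. The log2 difference was 1.14 ± 0.43 (SE; limma adjusted p = 0.306), and 0.68 without WT replicates 3 and 4. PYGB, the brain-type phosphorylase, which is also found in heart, had 16726, 13739.5, 12727 and 13536 in mutant libraries, against 14653, 14089.5, 15982 and 6201 in WT libraries (log2 difference 0.24, 95% interval -0.51 to 0.99). The liver-type PYGL had 836 to 963 in mutant and 587 to 1202 in WT libraries (log2 difference 0.18, 95% interval -0.40 to 0.77).

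PHKA1, the muscle regulatory subunit of phosphorylase kinase, had 1645, 787, 661 and 548 normalized counts in mutant libraries, against 528, 587, 402 and 505 in WT libraries. Its log2 difference of 0.72 ± 0.34 (SE; limma adjusted p = 0.377) was 0.39 without mutant replicate 1. The shared subunit gene PHKB had 547 to 1266 in mutant and 359 to 862 in WT libraries. PPP1R3C, which brings protein phosphatase 1 to glycogen and thereby favours synthesis, had 7674, 2542, 7798 and 6073 in mutant libraries, against 5837, 1808, 3042 and 659 in WT libraries. Its groups overlapped through mutant replicate 2 and WT replicates 1 and 3, and the log2 difference was 1.36 ± 0.63 (SE; limma adjusted p = 0.372), or 0.79 without WT replicate 4.

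Several steps are served by alternative isoforms. In the pairs below the muscle-type isoform comes first, except that LDHB is the heart-type subunit. The ratio within a library is not changed by a size factor, though quantile normalization can change it. These log2 ratios are not corrected for transcript length, so only their differences between libraries can be read, and none was tested. The HK2 to HK1 ratio was -6.95, -5.02, -4.74 and -4.45 in mutant libraries, against -4.04, -3.0, -3.56 and -3.50 in WT libraries, with every mutant value below every WT value. The difference of -1.76 was -1.21 without mutant replicate 1. The PFKM to PFKP ratio was 7.04, 2.87, 3.02 and 3.21 in mutant libraries, against 2.07, 2.50, 2.61 and 2.42 in WT libraries. All mutant values were again on one side, above WT, and the difference of 1.64 shrank to 0.63 without mutant replicate 1. The PGAM2 to PGAM1 ratio was 0.37, 0.58, 0.30 and -0.02 in mutant libraries, against 0.72, 1.18, 1.39 and 3.31 in WT libraries, all below WT; the difference of -1.34 was -0.79 without WT replicate 4. Muscle-type isoforms thus did not move to one side as a set. The pairs SLC2A4 with SLC2A1, ENO3 with ENO1, PYGM with PYGB and LDHB with LDHA overlapped between the groups.

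**Figure D3:**
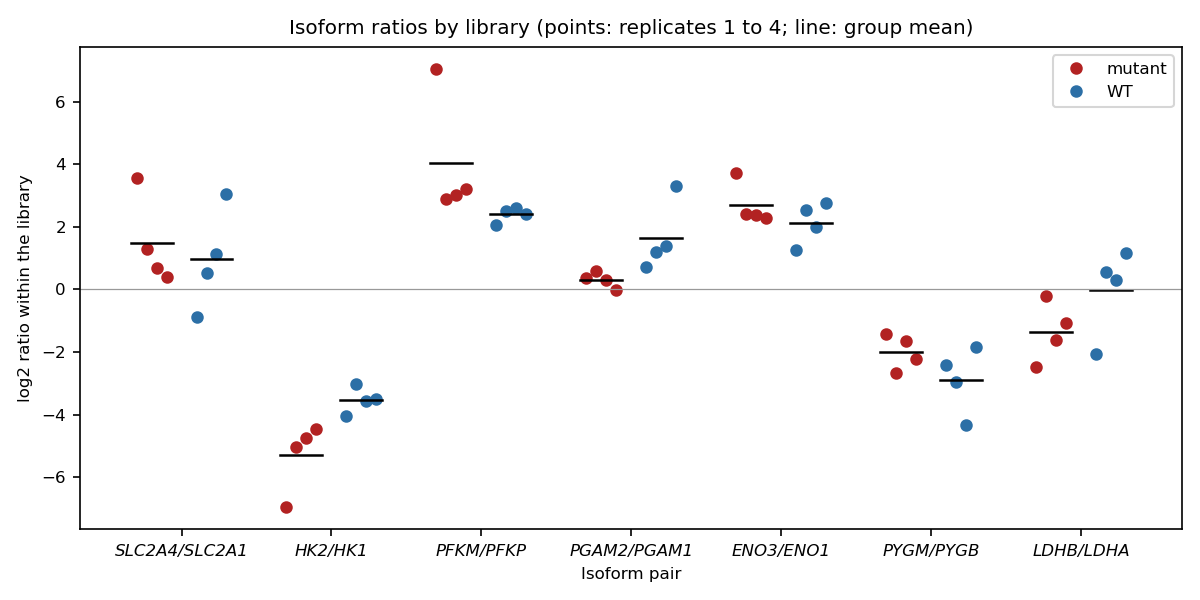
The vertical axis is the log2 ratio of normalized counts + 1 within a library for 7 isoform pairs, mutant libraries left and WT libraries right within each pair, points in the order of replicates 1 to 4 and lines at group means. The groups are apart for HK2/HK1, PFKM/PFKP and PGAM2/PGAM1, in different directions, and mutant replicate 1 stands at the edge of the mutant points for 6 of the 7 pairs.

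The members varied strongly between libraries of the same group, and a few libraries accounted for most extremes. Mutant replicate 1 was the highest mutant library for 16 of 35 members and the lowest for 15, or 45.7% and 42.9%, beside 38.3% and 36.5% of all tested genes. It was high for PFKM, GYS1, GYG1, PYGM and PHKA1 and low for SLC2A1, HK2, PFKP, ENO1, LDHA, LDHB and SLC16A3. WT replicate 1 was the highest WT library for 21 members (60.0%), beside 23.3% of all tested genes. WT replicate 4 was the lowest WT library for 21 members (60.0%), beside 26.6% of all tested genes, and it was the lowest of all 8 libraries for 13. The median SD of the log2 values was 0.47 over the members in mutant and 0.68 in WT libraries, beside 0.33 and 0.70 over all tested genes. The SD was smaller in mutant than in WT libraries for 29 of 35 members, a share like the 84.3% of all tested genes.

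**Figure D4:**
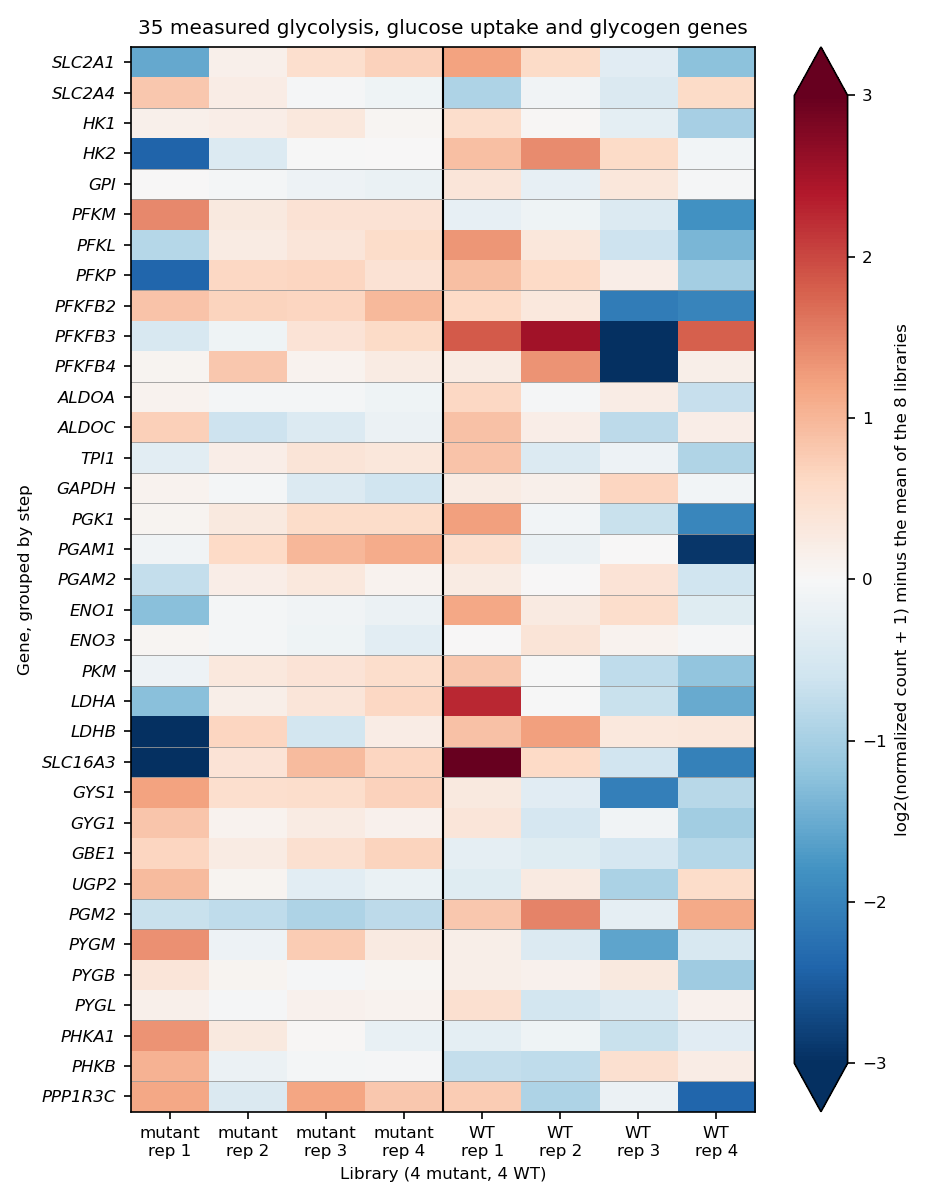
Rows are the 35 measured genes grouped by step, columns are the 4 mutant and then the 4 WT libraries, and the colour gives log2(normalized count + 1) minus the gene's mean over the 8 libraries, with the scale ending at -3 and 3. WT replicate 1 is mostly red and WT replicate 4 mostly blue through the lower glycolytic genes, and mutant replicate 1 is blue for HK2, PFKP, LDHB and SLC16A3 and red for PFKM and PYGM.

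Together the measured members took 30478, 28339, 26583 and 25368 reads per M nuclear reads in mutant libraries, against 35757, 28814, 26830 and 22486 in WT libraries, so their combined share overlapped between the groups. Without GAPDH the values were 16825 to 17850 in mutant and 10392 to 22320 in WT libraries. The mutant range was narrow and lay within the WT range.

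A second list of 71 genes of the same pathways, chosen like the members with earlier results of these data known, held 62 tested genes. None passed limma. At an unadjusted p under 0.05 stood 8 higher and 5 lower (21.0%, beside 13.9% of all tested genes). The authors' deposited table calls 5 of 61 higher and 1 lower (9.84%, beside 4.54% of all genes with an adjusted p there, 1.32% higher and 3.23% lower). Of its 18 tested genes of glycogen metabolism 15 had a positive log2 difference, beside 56.9% of all tested genes, with a median of 0.40. The authors call 3 of them higher, beside 1.32% of all genes with an adjusted p.

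Among those 3 are regulatory subunits that, like PPP1R3C, target protein phosphatase 1 to glycogen. PPP1R3A, the muscle subunit, had 1351, 683, 559.9 and 684 normalized counts in mutant libraries, against 344, 415, 252 and 133 in WT libraries. PPP1R3A differed by 1.55 ± 0.40 on the log2 scale (SE; limma adjusted p = 0.218), and by 1.03 without WT replicates 3 and 4. PPP1R3D had 244, 280.2, 220.2 and 244 in mutant libraries, against 107, 131, 63.0 and 91.0 in WT libraries, a log2 difference of 1.37 ± 0.31 (SE; limma adjusted p = 0.197). The third, PGM5, is a relative of phosphoglucomutase found at adherens junctions and is not known as a glycogen enzyme. It averaged 928 ± 145 in mutant and 468 ± 76.9 in WT libraries (SD, n = 4 each; log2 difference 0.99 ± 0.22, SE). For all 3 genes every mutant library exceeded every WT library. The authors' deposited table gives adjusted p of 0.0236 for PPP1R3A, 0.00157 for PPP1R3D and 0.00411 for PGM5. In DESeq2 on the recovered reads PPP1R3D was called without each library in turn, whereas PPP1R3A was not called without WT replicate 3 or any 1 of the mutant libraries (adjusted p = 0.0516 to 0.117) and PGM5 not without mutant replicate 4 (adjusted p = 0.0811). PHKG2, the liver and testis catalytic subunit of phosphorylase kinase, ran opposite, with 82.5 to 252 in mutant and 276 to 573 in WT libraries (log2 difference -1.14 ± 0.39, SE).

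Of 9 tested genes of GLUT4 trafficking, the groups did not overlap for 2, both higher in mutant libraries, beside 11.4% of all tested genes (6.17% higher). Both encode cargo of GLUT4 storage vesicles. Of the 9 genes, 3 had a positive log2 difference and 6 a negative one, with a median of -0.06. LNPEP, the insulin-regulated aminopeptidase that travels with GLUT4, had 1084, 590.0, 809 and 1152 normalized counts in mutant libraries, against 334, 331, 252 and 147 in WT libraries. Its log2 difference was 1.79 ± 0.33 (SE; limma adjusted p = 0.164), and the authors' deposited table calls it higher (adjusted p = 0.000417). SORT1, the sorting receptor sortilin, averaged 631 ± 112 in mutant and 244 ± 109.7 in WT libraries (SD, n = 4 each; log2 difference 1.53 ± 0.42, SE; 1.07 without WT replicate 3). It too is called higher in the authors' deposited table (adjusted p = 0.0289), but in DESeq2 on the recovered reads it was not called without mutant replicate 1, 2, 3 or 4 (adjusted p = 0.0830 to 0.158). The Rab GTPase-activating gene TBC1D1, which restrains GLUT4 vesicles, was at -0.57 ± 0.23 (SE), while the other 6 tested genes of that list had an unadjusted p of 0.05 or more.

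PRKAG2 encodes an AMP-activated protein kinase subunit whose mutation causes a glycogen storage cardiomyopathy in humans. It had 304, 372, 443 and 399 normalized counts in mutant libraries, against 1008, 562, 2083 and 522 in WT libraries, all lower in mutant pigs. The log2 difference was -1.23 ± 0.42 (SE; limma adjusted p = 0.274), or -0.82 without WT replicate 3. It is called lower in the authors' deposited table (adjusted p = 0.0445), but DESeq2 on the recovered reads did not without WT replicate 1 or 3 or any mutant library (adjusted p = 0.0627 to 0.183). In the pentose phosphate branch PGD, which makes NADPH in the cytosol, had a log2 difference of -0.88 ± 0.34 (SE; limma adjusted p = 0.311). H6PD, which makes NADPH in the endoplasmic reticulum, was at 0.76 ± 0.22 (SE; limma adjusted p = 0.236). SLC16A7, which encodes the pyruvate and lactate carrier MCT2, was at 1.49 ± 0.48 (SE; limma adjusted p = 0.261), and BPGM, which makes 2,3-bisphosphoglycerate, at 0.75 ± 0.30 (SE; limma adjusted p = 0.320).

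**Figure D5:**
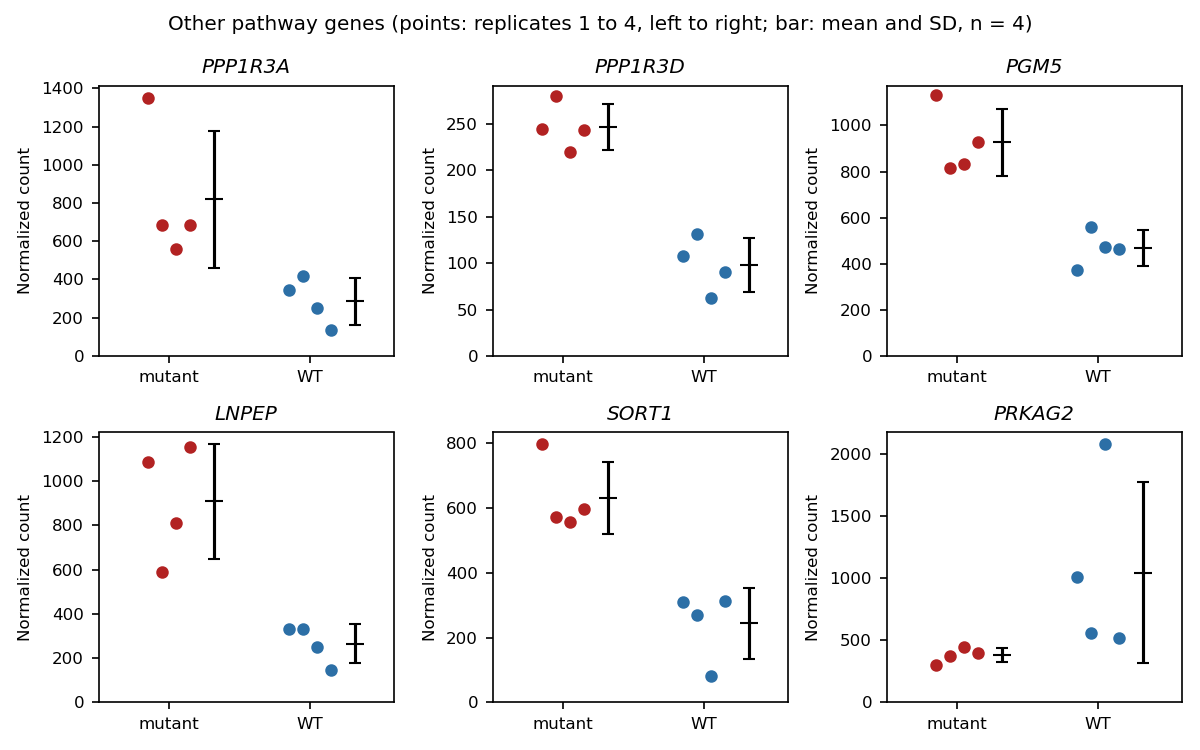
Each panel plots the normalized count (axis from 0) of a gene outside the member list that the authors' deposited table calls, with mutant libraries left and WT libraries right, points in the order of replicates 1 to 4 and bars showing mean and SD (n = 4). Mutant libraries are all above WT for PPP1R3A, PPP1R3D, PGM5, LNPEP and SORT1 and all below WT for PRKAG2, where WT replicate 3 reaches 2083.

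Cell type markers were set beside these values. The 7 cardiomyocyte markers were present in every library. ACTC1 had only 1752 normalized counts in WT replicate 4, against 83137 to 168682 in the other WT libraries. It had 32209 in mutant replicate 1, against 123483 to 234540 in the other mutant libraries. The summed level of the 7 was 657134 to 714406 normalized counts in mutant and 434840 to 589996 in WT libraries, without overlap. That separation rests on MYH7: without it the sums overlapped, at 359828 to 480913 in mutant and 301120 to 494564 in WT libraries. Of the 7, 5 were higher and 2 lower in mutant libraries, and only MYH7 had an unadjusted p under 0.05. Skeletal muscle markers were at or near 0, with a sum of at most 7.28 in mutant and 29.1 in WT libraries over the 2 with a row. Of the 5 fibroblast, 5 endothelial and 4 smooth muscle and pericyte markers, none had an unadjusted p under 0.05. Their sums overlapped, at 17111 to 48243, 14476 to 22057 and 8434 to 15504 in mutant libraries, against 5026 to 65954, 6933 to 33228 and 4765 to 21418 in WT libraries. Macrophage markers summed to 655 to 2321 in mutant and 425 to 2441 in WT libraries over 4 genes. Adipocyte markers summed to 31.9 to 289 in mutant and 0 to 86.1 in WT libraries over the 3 with a row. The parts of cell composition and of the mitochondrial share of reads in the differences above were not tested, and the mitochondrial share cannot be told apart from genotype in these groups.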

How the data were processed

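Left ventricular RNA of 4 mutant and 4 WT pigs was analysed. Per the labels' protocols, polyadenylated RNA was made into random-primed libraries with an NEBNext Ultra kit. In the authors' deposited table each gene symbol has 8 normalized counts, a signal equal to reads divided by 1 size factor per library, and their mean. It also holds, per the file headers, the authors' log2 fold change, its standard error, a Wald statistic (score), p-value and adjusted p-value. The submitters' processing notes name DESeq2 and a human build, GRCh38, for these pig samples. Aligner, counter, annotation and strand setting: not given in the sources used here. Coordinates are therefore left out, and reads of paralogs or overlapping genes may be shared.

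All values (100% within a tolerance of 1e-06) were whole multiples of 1 read, so reads were recovered. Of 14720 rows, 2 named for an annotation source held 0.392% to 0.853% of reads and were left out; 14504 of 14718 gene rows and all 36 member rows matched a pig symbol. Genes with at least 10 normalized counts in at least 4 libraries were fitted with limma 3.58.1 (trended, robust prior; R 4.3.3) on log2(normalized count + 1), which understates changes of low genes; p-values were Benjamini-Hochberg adjusted over all 11660 genes. Scripts were tested on simulated data. Alternatives were edgeR 4.0.16 and DESeq2 1.42.0 on the recovered reads, other scalings, pseudocounts, filters and priors, library weights, and libraries left out; DESeq2 with a library left out, and mutant replicate 1 left out with WT replicates 3 and 4, were added after seeing the data.

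Members and lists were chosen with earlier results of these data known. Values in every library are given for members with an unadjusted p under 0.05, without overlap of the groups, called by the authors, or with the highest mean of their step; others are given by range, or in full where single libraries stood out after their values were seen. Other pathway genes are named if called by the authors, or at an unadjusted p under 0.05 with a mean of at least 50; 1 such gene is not reported here. Counting limits cover counting error only.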

Additional observations from a re-analysis of the deposited data

Results flagged for a closer look

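In 7 of 70 groups of 4 libraries, the highest or lowest library of a measured member lay far from the others, by a gap to the nearest that, relative to the whole range, exceeded Dixon's 95% critical value for 4 samples. Chance flags about 1 in 20 groups. Mutant replicate 1 gave 5 of the 7. It was highest for PFKM at 20920 normalized counts, with the other mutant libraries at 9440 to 10520, for GYG1 at 4208, with the others at 2557 to 2804, and for PHKB at 1266, with the others at 547.5 to 603.9. It was lowest for PFKP at 157.6, with the others at 1128 to 1293, and for ENO1 at 1583, with the others at 3357 to 3635. WT replicate 1 gave the other 2, the highest values of LDHA at 12030, with the other WT libraries at 882 to 2464, and of SLC16A3 at 3203, with the others at 95.84 to 595.2.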

How the results depend on the processing

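No paired analysis was possible because the labels number the 8 pigs separately, and the groups share no number. Members called numbered 0 in limma, 2 in DESeq2 and 1 (PGM2) with array quality weights. All genes called numbered 0 in limma, 582 in DESeq2, 3 after quantile normalization, 92 with weights, 12 without WT replicates 3 and 4, and 17 without these and mutant replicate 1. Leaving out 1 library in turn gave 0 members and 0 to 3 genes called, 4 to 11 members (4 without mutant replicate 1, 11 without WT replicate 1) and 921 to 2192 genes at an unadjusted p under 0.05, and a member median of 0.07 to 0.41. Without WT replicates 3 and 4 that median was -0.15; without these and mutant replicate 1, 12 members had an unadjusted p under 0.05. DESeq2 called 1 to 5 members and 128 to 1027 genes with 1 library left out, lowest without mutant replicate 4 and highest without WT replicate 1. The cause of these changes was not tested.

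Among the members given in every library, the log2 difference of 11 changed sign under some alternative; PFKFB3, described above, was the only 1 of these called in any. Without WT replicates 3 and 4 it was -0.10 for HK1, -0.065 for TPI1, -0.21 for PGK1, -0.13 for PKM and -0.027 for PYGB; without mutant replicate 1 as well, it was -0.092 for HK1, -0.11 for PGK1, -0.11 for PYGB and 0.085 for PGAM2. After quantile normalization it was 0.12 for ALDOA, 0.45 for GAPDH, 0.066 for PGAM2 and 0.068 for LDHA, and with weights 0.15 for PGAM2. Leaving out 1 library in turn gave -0.31 to 0.13 for ALDOA, -0.24 to 0.19 for PGAM2, -0.55 to 0.71 for LDHA, -1.27 to 0.42 for SLC16A3 and -0.078 to 0.38 for PYGB. PFKM, GYS1, GBE1 and PGM2 kept an unadjusted p under 0.05 in every setting of limma, edgeR and DESeq2 run. Against limma, DESeq2 shifted the median difference of all genes by -0.15 and edgeR by -0.14, with 18 members positive and 17 negative in both. The 2.53 M nuclear reads of WT replicate 3 limit its low values.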
